A study of Homo sapiens with 12 samples.

Results

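The splicing factor genes described here are those whose current symbol starts with SRSF, HNRNP, SF3A, SF3B or SNRP, with SNRPN left out. Membership went by symbol alone, though it was set with earlier results of these data known. Each gene was read from 1 probe set that names no other gene, the brightest over all 12 arrays where a gene had several. This gave 47 genes of the 11963 measured: 9 SRSF, 19 HNRNP, 8 SF3 (3 SF3A and 5 SF3B) and 11 SNRP genes. One of the HNRNP entries, HNRNPA3P1, is a pseudogene. Of 58 protein-coding genes with such symbols in the gene table, 12 had no probe set of their own and were not analysed as genes here, among them SRSF2, SRSF9, HNRNPH2 and SF3B6.

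RNA was measured on 3 arrays in each of 4 groups labelled as MDA-MB-231 cells, an established human breast cancer line of the basal-like, triple-negative type. The groups carried stably an shRNA against LSD2, a scramble shRNA, the vector LSD2/eGFP/Flag, or the vector eGFP/Flag without LSD2. LSD2, the product of KDM1B, is a lysine demethylase that acts on histones, and the study set out to lower it by shRNA and to raise it by overexpression. All groups grew in the usual medium with 800 ug/ml G418, an antibiotic that kills cells without the construct. The labels call the arrays biological replicates but do not say whether a line was a clone or a pool, nor which promoter drove a construct, so p-values measure the spread between these arrays and a difference between groups is also one between lines. No probe set in use named KDM1B, so LSD2 itself could not be read as a check of the labels.

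Values are log2 RMA signals, and a difference is a group mean minus another, so that 1 log2 unit is a doubling. A gene was called, and is said to have risen or fallen, where the Benjamini-Hochberg adjusted p of limma's moderated test over all 11963 genes was under 0.05. Array medians ran from 6.65 to 6.71 in the shRNA arrays and from 7.03 to 7.18 in the vector arrays, taken as normalized apart from each other, and no gene is compared between shRNA and vector arrays. Array pairs correlated at 0.996 to 0.998 within groups, at 0.991 to 0.994 between LSD2 shRNA and scramble, and at only 0.904 to 0.908 between LSD2/eGFP/Flag and eGFP/Flag.

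On the arrays labelled LSD2/eGFP/Flag, markers of MDA-MB-231 went against the label. Of 12 genes that mark this line and basal breast cancer, 11 were called lower there and 1, SPARC, higher. Their summed signal spanned 13.40 to 13.54 log2 units on the LSD2/eGFP/Flag arrays and 16.17 to 16.20 on the eGFP/Flag arrays. CD44, a surface glycoprotein of mesenchymal breast cancer cells, averaged 3.99 in LSD2/eGFP/Flag and 12.41 in eGFP/Flag cells. Of 10 neural markers 6 were higher and 2 lower, with a summed signal of 13.14 to 13.34 in LSD2/eGFP/Flag against 12.31 to 12.57 in eGFP/Flag cells; NEFM, a neurofilament, averaged 11.32 in LSD2/eGFP/Flag and 4.58 in eGFP/Flag cells. Luminal markers had 2 of 10 higher and 4 lower, fibroblast and endothelial markers 3 of 10 higher and 1 lower, and blood cell markers 0 of 6 in either direction (limma, also 0 at an unadjusted p under 0.05). Over all genes 30.9% were called higher and 26.1% lower in this comparison. In the LSD2 shRNA comparison 2 of the 12 MDA-MB-231 markers were higher, and their summed signal was 15.36 on every LSD2 shRNA array against 15.25 to 15.27 on scramble arrays. Luminal markers had 2 of 10 higher and 0 lower (limma; 2 lower at an unadjusted p under 0.05), although their summed signal was lower, at 13.01 to 13.11 on LSD2 shRNA arrays against 13.24 to 13.29 on scramble arrays. Of 10 neural markers 0 were called (limma; 1 was lower at an unadjusted p under 0.05), with sums of 12.02 to 12.09 on LSD2 shRNA arrays against 12.13 to 12.29 on scramble arrays. Fibroblast and endothelial markers had 1 of 10 higher, and blood cell markers 1 of 6 higher and 1 lower. Over all genes 5.00% were called higher and 5.53% lower with LSD2 shRNA. The part of these marker differences in the results below was not tested, and in bulk RNA fewer cells of a type and less RNA per cell cannot be told apart.

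Pre-mRNA splicing removes introns in a particle built on each transcript. The SNRP genes here encode Sm proteins, which form a ring around small nuclear RNAs, and proteins particular to the U1 and U2 particles that recognise the start of the intron and its branch site. SF3A and SF3B are the multi-subunit parts of the U2 particle that seat it on the branch site. SR proteins, encoded by the SRSF genes, bind mainly exons and help these particles to choose them, whereas hnRNP proteins coat nascent RNA and often act against exon choice. Many SR and hnRNP genes control their own level through exons that send the transcript to nonsense-mediated decay.

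Promoter sequences are shown for the members on which the comparisons turn. SRSF4 and HNRNPL had the largest rises in the vector comparison on the probe set used for each gene. SRSF11 and SNRPD3 were called in both comparisons. SF3A3 and SNRPC rose and carry a motif common in their families. Each sequence is RefSeq's window of 250 bases before to 50 bases after the gene's start on GRCh38.p14, printed along the gene's own strand. SRSF4 lies at chr1:29181851-29182150 on the minus strand, SRSF11 at chr1:70221130-70221429 on the plus strand and HNRNPL at chr19:38852298-38852597 on the minus strand. SF3A3 lies at chr1:37989973-37990272 on the minus strand, SNRPC at chr6:34757255-34757554 on the plus strand and SNRPD3 at chr22:24555400-24555699 on the plus strand. Capitals mark a match on either strand to the ETS letters CCGGAAG, the CCAAT box CCAAT, the TATA letters TATAAA or the E-box CACGTG.
SRSF4: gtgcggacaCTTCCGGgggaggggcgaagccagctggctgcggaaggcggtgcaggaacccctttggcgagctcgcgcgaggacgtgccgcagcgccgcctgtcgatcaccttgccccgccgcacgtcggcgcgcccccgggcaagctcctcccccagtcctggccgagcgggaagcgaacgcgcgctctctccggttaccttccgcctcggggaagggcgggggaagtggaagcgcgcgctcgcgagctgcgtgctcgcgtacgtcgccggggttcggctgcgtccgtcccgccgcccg
SRSF11: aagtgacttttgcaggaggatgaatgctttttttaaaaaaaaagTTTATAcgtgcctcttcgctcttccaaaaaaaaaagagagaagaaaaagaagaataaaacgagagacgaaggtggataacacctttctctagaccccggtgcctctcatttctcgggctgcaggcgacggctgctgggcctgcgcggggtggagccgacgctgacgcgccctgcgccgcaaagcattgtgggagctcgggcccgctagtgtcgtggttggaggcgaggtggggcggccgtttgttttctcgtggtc
HNRNPL: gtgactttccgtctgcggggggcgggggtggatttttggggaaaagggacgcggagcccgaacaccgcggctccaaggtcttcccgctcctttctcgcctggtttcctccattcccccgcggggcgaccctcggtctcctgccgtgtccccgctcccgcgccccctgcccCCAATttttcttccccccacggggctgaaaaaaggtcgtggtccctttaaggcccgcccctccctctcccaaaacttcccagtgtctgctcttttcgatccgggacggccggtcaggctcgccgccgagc
SF3A3: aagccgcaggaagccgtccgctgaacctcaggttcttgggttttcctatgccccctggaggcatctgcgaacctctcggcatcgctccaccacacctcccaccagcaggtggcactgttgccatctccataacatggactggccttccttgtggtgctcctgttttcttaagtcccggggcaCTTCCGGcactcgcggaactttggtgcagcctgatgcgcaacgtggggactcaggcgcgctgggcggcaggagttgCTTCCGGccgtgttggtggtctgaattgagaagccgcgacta
SNRPC: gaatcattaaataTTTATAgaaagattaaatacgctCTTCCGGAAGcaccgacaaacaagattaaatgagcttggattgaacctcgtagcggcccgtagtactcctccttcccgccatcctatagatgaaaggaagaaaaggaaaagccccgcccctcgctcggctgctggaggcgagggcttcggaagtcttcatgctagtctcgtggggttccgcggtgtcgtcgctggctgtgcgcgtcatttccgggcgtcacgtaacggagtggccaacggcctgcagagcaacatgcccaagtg
SNRPD3: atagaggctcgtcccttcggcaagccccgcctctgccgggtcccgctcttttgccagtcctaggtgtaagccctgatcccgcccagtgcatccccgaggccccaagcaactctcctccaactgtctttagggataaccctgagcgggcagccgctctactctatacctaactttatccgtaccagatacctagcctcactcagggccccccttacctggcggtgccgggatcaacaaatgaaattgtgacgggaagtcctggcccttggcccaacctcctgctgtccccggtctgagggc
SF3A3 holds the ETS letters on its minus strand at 68 bases before and 8 bases after the start. SNRPC holds them on both strands in 1 overlapping run at 214 and 211 bases before the start, and SRSF4 at 241 bases before it. HNRNPL has a CCAAT box 80 bases before its start, SRSF11 and SNRPC hold the TATA letters on the minus strand at 206 and 237 bases before theirs, and SNRPD3 has none of these motifs in this window.

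A promoter was found for 43 of the 47 genes. The ETS letters stood in 16 of these (37.2%), in 15.2% of the 9563 promoters of genes tested and in 10.7% of all 27305 promoters. They were unevenly spread: 12 of 17 SF3 and SNRP promoters held them, against 4 of 26 SRSF and HNRNP promoters, a split looked at after the values were seen. CCAAT stood in 41.9% of member promoters and 37.3% of promoters of genes tested. The E-box stood in 16.3% of member promoters against 9.51% of those of genes tested, and TATAAA in 14.0% of member promoters against 8.30% of those of genes tested. Member windows held a median of 28 CpG, those of genes tested 24. Of members that rose in the vector comparison, 7 of 20 with a promoter held the ETS letters, against 8 of 19 that were not called and 1 of 4 that fell, SNRPB2. A match is a description of letters, not of a bound site.

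The knockdown comparison was set up to ask what lowering LSD2 did to these genes. Few moved: 2 of 47 rose in LSD2 shRNA cells, SRSF11 and SNRPD3, and 0 fell, while 45 were not called. Over all genes 10.5% were called, 5.00% higher and 5.53% lower, so 2 of 47 (4.26%) is near the background for higher calls. At an unadjusted limma p under 0.05, 11 members were higher and 2 lower, beside 1316 higher and 1439 lower of all 11963 genes. The median difference of the members was 0.08 log2, against -0.01 over all genes. Above 0 were 36 members and below it 11, beside 5797 above and 6162 below over all genes. At 1 log2 unit or more, 0 members were called, against 0.527% of all genes. The arrays of both groups did not overlap for 15 members, 11 of them higher and 4 lower in LSD2 shRNA cells, where 28.3% of all genes did not overlap.

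SRSF11 encodes an SR protein that associates with core factors of intron recognition. On the arrays it read 10.07, 10.00 and 9.82 in LSD2 shRNA cells, against 9.71, 9.50 and 9.65 in scramble cells, and each LSD2 shRNA array was above each scramble array. The difference was 0.34 ± 0.09 log2 (SE, n = 3 each), with an adjusted p of 0.0228 by limma. That call rested on this probe set: the other probe sets of SRSF11 gave -0.13 and -0.27, neither called, and the mean of all probe sets gave -0.02. It was also lost when scramble replicate 2 or LSD2 shRNA replicate 1 or 2 was left out, with differences of 0.28, 0.29 and 0.32.

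SNRPD3, one of the Sm ring proteins, read 11.79, 11.73 and 11.73 in LSD2 shRNA cells, against 11.48, 11.45 and 11.53 in scramble cells, with no overlap. It was 0.27 ± 0.07 log2 higher (SE, n = 3 each; adjusted p = 0.0205 by limma). SNRPD3 has 1 probe set. The call was lost without scramble replicate 1 (0.26) or replicate 2 (0.25), and without LSD2 shRNA replicate 1 (0.25).

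A few members that were not called are given for their values. SF3B2, a subunit of SF3B singled out after its values were seen, read 10.17, 10.14 and 10.05 in LSD2 shRNA cells, against 10.34, 10.37 and 10.28 in scramble cells. Its difference was -0.21 ± 0.07 log2 (adjusted p = 0.0732 by limma; 0.0197 to 0.0490 in the 3 settings that called it, array weights, an intensity trend and a filter on dim genes). SNRPG, another Sm protein, differed by 0.22 ± 0.07 log2 (adjusted p = 0.0809 by limma). HNRNPA1, an hnRNP protein that opposes SRSF1 in the choice of splice sites, read 11.33, 11.37 and 11.47 in LSD2 shRNA cells, against 11.24, 11.02 and 11.01 in scramble cells. These did not overlap, but the difference of 0.30 ± 0.13 was not called (adjusted p = 0.200 by limma).

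**Figure D1:**
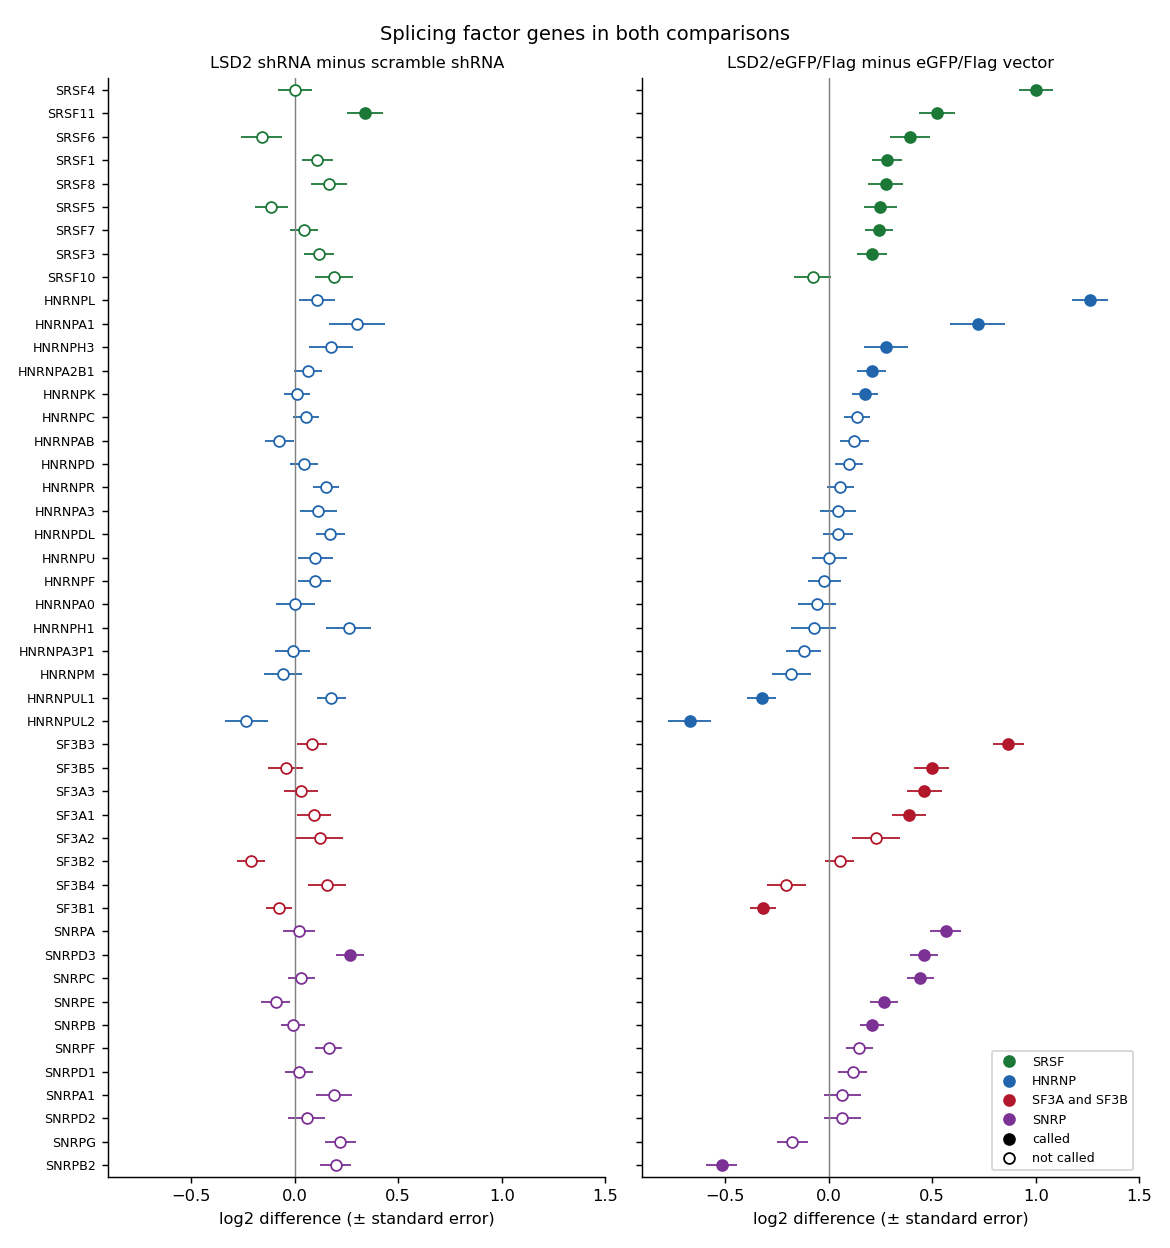
Log2 difference of each of the 47 genes, with its standard error, LSD2 shRNA minus scramble shRNA (left) and LSD2/eGFP/Flag minus eGFP/Flag (right), 3 arrays a group; filled points were called. On the left only SRSF11 and SNRPD3 are filled, while on the right 22 filled points lie above 0 and 4 below, from -0.67 for HNRNPUL2 to 1.26 for HNRNPL.

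The vector comparison was set up to ask what adding LSD2 did. Markers on the LSD2/eGFP/Flag arrays went against their label, and LSD2 itself was not read. An effect of LSD2 and a difference between cells therefore cannot be told apart here. In the arrays labelled LSD2/eGFP/Flag, 22 of 47 members rose, 4 fell and 21 were not called, relative to eGFP/Flag. This stands on a background in which 57.0% of all genes were called, 30.9% higher and 26.1% lower. The members' median difference was 0.15 log2, against 0.01 over all genes, 0.14 above it. On the probe set used for each gene their changes were small: 2 of 47 (4.26%), HNRNPL and SRSF4, were called at 1 log2 unit or more, against 18.3% of all genes. Dimmer probe sets of SRSF11, HNRNPA3 and HNRNPD also passed 1 log2 unit, as given below. The median absolute difference was 0.21 log2 for the members and 0.31 for all genes. Among the brighter genes, those left after a filter on dim genes, the contrast in size was wider, at 0.22 for 46 members and 0.46 for 7975 genes. Arrays did not overlap for 31 members, 26 higher and 5 lower, where 61.1% of all genes did not overlap.

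These counts depend on how the vector arrays were scaled. With every array shifted to equal medians, the median over all genes was -0.12 log2 in place of 0.01, and the calls over all genes were 2920 higher and 4295 lower, in place of 3701 higher and 3123 lower. Under that scaling 12 members rose and 8 fell. Their median was 0.01. This scaling shifts all genes alike, so the members' median stays 0.14 above that of all genes by construction. Called under each setting tried were 11 of the 22 that rose, namely SRSF4, SRSF6, SRSF11, HNRNPL, SF3A1, SF3A3, SF3B3, SF3B5, SNRPA, SNRPC and SNRPD3, and 4 of the 4 that fell.

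**Figure D2:**
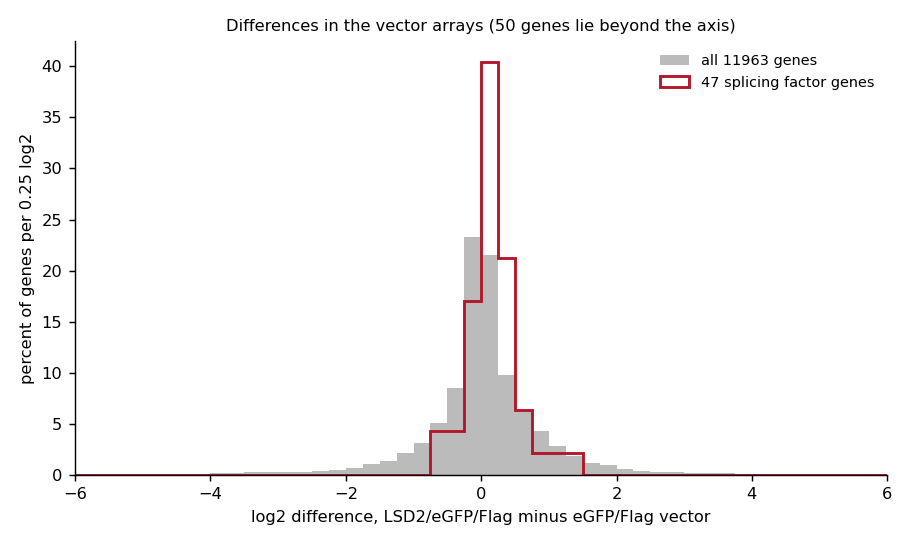
Percent of genes in equal bins of log2 difference, LSD2/eGFP/Flag minus eGFP/Flag, for the 47 splicing factor genes (red line) and all 11963 genes (grey); 50 genes lie beyond the axis. The members run from -0.67 to 1.26 with a median of 0.15, while all genes run from -8.60 to 8.34.

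SR protein genes moved mostly one way, where 30.9% of all genes were called higher and 26.1% lower. Of the 9 measured, 8 rose in the LSD2/eGFP/Flag arrays and 0 fell (limma, also 0 at an unadjusted p under 0.05), with a median difference of 0.27 log2, and with cyclic loess the counts were also 8 and 0, but under equal medians 3 rose and 0 fell. The member not called was SRSF10, a splicing repressor active when dephosphorylated, at -0.08 ± 0.09. SRSF4, one of the longer SR proteins, read 12.56, 12.71 and 12.69 in LSD2/eGFP/Flag cells, against 11.80, 11.55 and 11.61 in eGFP/Flag cells. The groups lay far apart, and the difference of 1.00 ± 0.08 log2 (SE, n = 3 each; adjusted p = 1.62e-07 by limma) is 2.00-fold. In the shRNA arrays the SRSF4 values overlapped: 9.81, 10.02 and 9.90 in LSD2 shRNA cells lay around 9.93, 9.93 and 9.87 in scramble cells.

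SRSF11 read 12.24, 12.40 and 12.26 in LSD2/eGFP/Flag cells, against 11.83, 11.81 and 11.70 in eGFP/Flag cells, and rose by 0.52 ± 0.09 log2 (adjusted p = 0.000128 by limma). SRSF6, an SR protein known to act on tau splicing, read 11.89, 12.36 and 12.11 in LSD2/eGFP/Flag cells, against 11.68, 11.76 and 11.75 in eGFP/Flag cells, a rise of 0.39 ± 0.10 (adjusted p = 0.00334). SRSF1, the best studied SR protein and an oncogene in breast epithelium, read 12.82, 12.84 and 12.77 in LSD2/eGFP/Flag cells, against 12.45, 12.60 and 12.54 in eGFP/Flag cells. None of these overlapped, and SRSF1 rose by 0.28 ± 0.07 (adjusted p = 0.00513 by limma).

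SRSF3 and SRSF7 also serve as adaptors for mRNA export, and both are named for the highest signals of the family. SRSF3 read 13.43, 13.52 and 13.37 in LSD2/eGFP/Flag cells, against 13.20, 13.25 and 13.25 in eGFP/Flag cells, a rise of 0.21 ± 0.07 (adjusted p = 0.0243 by limma). SRSF7 rose by 0.24 ± 0.07 (adjusted p = 0.00724 by limma), but its other 3 probe sets gave -0.05, -0.15 and -0.01, none called, and the mean of its probe sets gave 0.01 without a call (adjusted p = 0.930 by limma). The remaining called members, SRSF5 and SRSF8, rose by 0.25 ± 0.08 and 0.27 ± 0.09; SRSF8 was the only called SRSF gene whose arrays overlapped, by its lowest LSD2/eGFP/Flag value of 10.47 against a highest eGFP/Flag value of 10.49. SRSF1, SRSF3, SRSF5, SRSF7 and SRSF8 lost their calls under equal medians, with differences from 0.07 to 0.14. Leaving out 1 array also ended the calls of SRSF3 (0.19 without eGFP/Flag replicate 1, 0.17 without LSD2/eGFP/Flag replicate 2) and SRSF5 (0.17 without eGFP/Flag replicate 3). SRSF8 lost its call without LSD2/eGFP/Flag replicate 1 (0.23) or 2 (0.24) or eGFP/Flag replicate 1 (0.23).

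**Figure D3:**
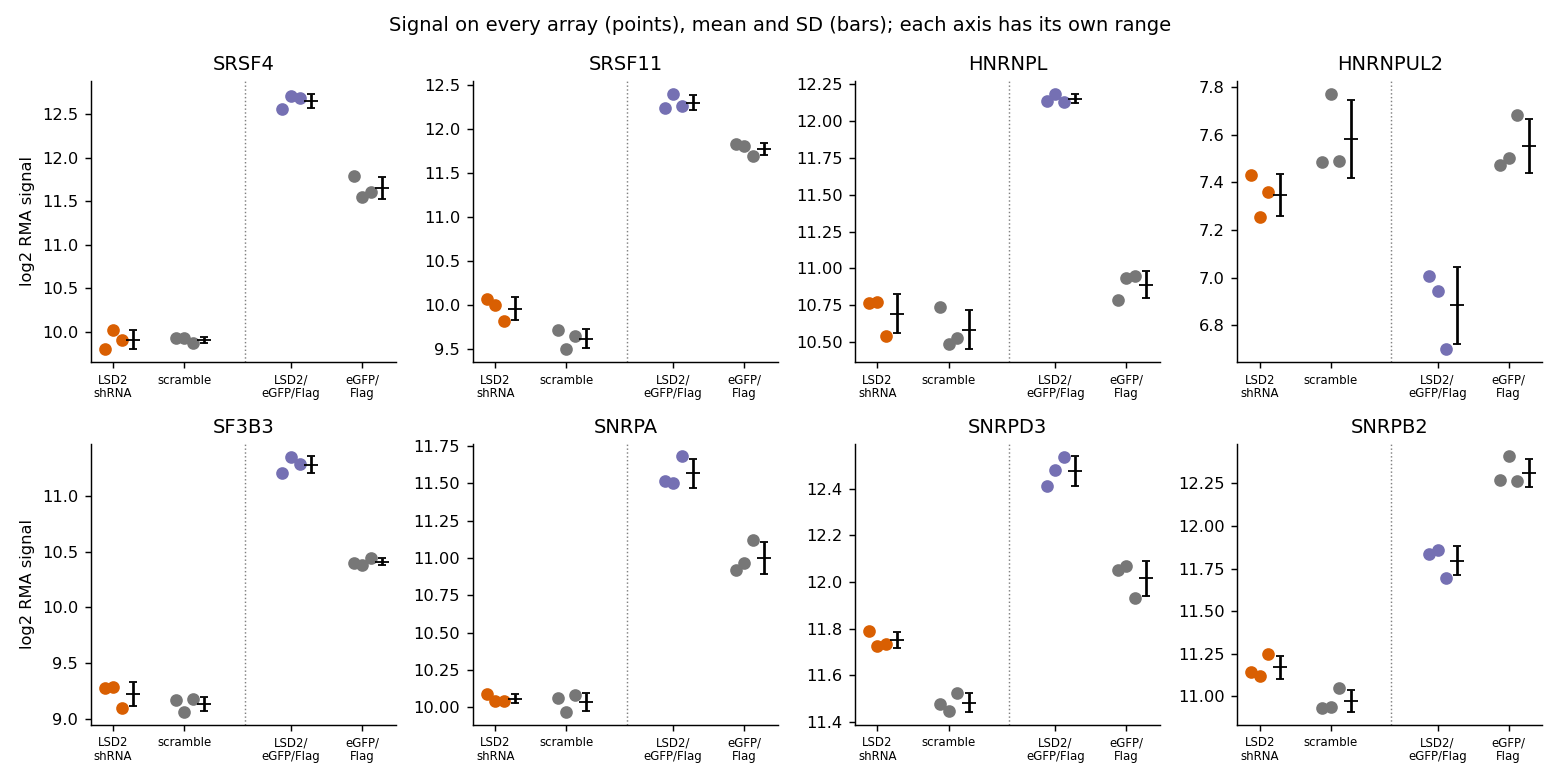
Log2 RMA signal on every array (points) with mean and SD (bars) for 8 members, LSD2 shRNA, scramble shRNA, LSD2/eGFP/Flag and eGFP/Flag from left to right; a dotted line parts the shRNA from the vector arrays and each panel has its own axis. SRSF4 and HNRNPL separate only on the vector side. SRSF11, SNRPD3, HNRNPUL2 and SNRPB2 separate on both, though HNRNPUL2 and SNRPB2 were not called with LSD2 shRNA. HNRNPUL2 and SNRPB2 are lower in LSD2/eGFP/Flag than in eGFP/Flag.

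Among 19 hnRNP genes 5 rose (26.3%) and 2 fell (10.5%), while 12 passed in neither direction. The share that rose is near the 30.9% of all genes called higher, and 26.1% of all genes were called lower. The family median of 0.04 turned to -0.09 under equal medians, where 2 rose and 4 fell. HNRNPL binds CA-rich elements and represses or includes exons by position. On the probe set used for each gene it had the largest difference of all 47 members. Dimmer probe sets of other members differed by more, up to 4.31 for SRSF11. HNRNPL read 12.14, 12.19 and 12.13 in LSD2/eGFP/Flag cells, against 10.79, 10.93 and 10.95 in eGFP/Flag cells. The difference was 1.26 ± 0.09 log2, or 2.40-fold (SE, n = 3 each; adjusted p = 2.75e-08 by limma), and its second probe set gave 1.32. In the shRNA arrays HNRNPL values overlapped, 10.77, 10.77 and 10.54 in LSD2 shRNA cells and 10.74, 10.49 and 10.53 in scramble cells.

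HNRNPA1 read 12.17, 11.67 and 12.04 in LSD2/eGFP/Flag cells, against 11.43, 11.31 and 10.98 in eGFP/Flag cells, and rose by 0.72 ± 0.13 (adjusted p = 0.000383 by limma). Its call depended on the probe set: 2 further probe sets gave 0.35 and -0.29, neither called, and the mean of the 3 gave 0.26 without a call. HNRNPK, a poly-C binding protein with roles in transcription and translation, rose by 0.18 ± 0.06 (adjusted p = 0.0295 by limma). That was the smallest of the called differences and was lost in 9 settings, among them the leaving out of eGFP/Flag replicate 1 or 3 or of LSD2/eGFP/Flag replicate 1 or 2 (0.15 to 0.16). HNRNPAB, an RNA-binding protein named for its high signal, read 13.53, 13.63 and 13.55 in LSD2/eGFP/Flag cells and 13.49, 13.52 and 13.34 in eGFP/Flag cells, and its difference of 0.12 ± 0.07 was not called (adjusted p = 0.150 by limma).

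Both hnRNP U-like genes fell. HNRNPUL2, which with its relative HNRNPUL1 takes part in the response to DNA double-strand breaks, read 7.01, 6.95 and 6.70 in LSD2/eGFP/Flag cells, against 7.47, 7.50 and 7.68 in eGFP/Flag cells. Its difference was -0.67 ± 0.10 log2 (adjusted p = 7.65e-05 by limma). HNRNPUL1 read 11.16, 11.18 and 11.26 in LSD2/eGFP/Flag cells, against 11.53, 11.42 and 11.62 in eGFP/Flag cells, a difference of -0.32 ± 0.07 (adjusted p = 0.00117 by limma). In the LSD2 shRNA arrays HNRNPUL2 stood at -0.23 ± 0.10, and HNRNPUL1 at 0.18 ± 0.07, neither called (adjusted p = 0.196 and 0.141 by limma). HNRNPU itself, the scaffold attachment protein, was not called in either comparison.

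SF3 subunits did not move as a block. Their counts stand beside 30.9% of all genes called higher and 26.1% called lower. In the SF3A trimer 2 of 3 subunits rose and 0 fell (limma, also 0 at an unadjusted p under 0.05). SF3A3 read 10.85, 11.17 and 11.04 in LSD2/eGFP/Flag cells, against 10.50, 10.62 and 10.55 in eGFP/Flag cells (0.46 ± 0.08; adjusted p = 0.000288 by limma). SF3A1 read 11.94, 12.14 and 12.07 in LSD2/eGFP/Flag cells, against 11.66, 11.76 and 11.56 in eGFP/Flag cells (0.39 ± 0.08; adjusted p = 0.000958), and all 3 of its probe sets were called higher. SF3A2 was not called.

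Among the 5 SF3B subunits 2 rose (40.0%) and 1 fell (20.0%), against 30.9% and 26.1% of all genes. SF3B3 and SF3B5, which also belong to the SAGA transcription co-activator, were the ones that rose. SF3B3 read 11.20, 11.35 and 11.28 in LSD2/eGFP/Flag cells, against 10.40, 10.38 and 10.45 in eGFP/Flag cells, and rose by 0.87 ± 0.07 (adjusted p = 2.06e-07 by limma). SF3B5 read 11.55, 11.48 and 11.37 in LSD2/eGFP/Flag cells, against 10.84, 11.00 and 11.07 in eGFP/Flag cells, and rose by 0.50 ± 0.08 (adjusted p = 0.000179 by limma). SF3B1, the large subunit that holds the branch site and is often mutated in myelodysplasia, went the other way. It read 12.84, 12.81 and 12.85 in LSD2/eGFP/Flag cells, against 13.15, 13.13 and 13.17 in eGFP/Flag cells, a difference of -0.32 ± 0.06 (adjusted p = 0.000662 by limma). The SD was 0.02 in both groups. SF3B2 and SF3B4 were not called.

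In the vector comparison the SNRP genes held 5 that rose (45.5%), 1 that fell (9.09%) and 5 not called. Over all genes 30.9% were called higher and 26.1% lower. Of the 4 proteins particular to the U1 or U2 particle, both U1 proteins rose and 1 U2 protein fell. SNRPA, which binds a stem-loop of U1 RNA, read 11.52, 11.50 and 11.68 in LSD2/eGFP/Flag cells, against 10.92, 10.97 and 11.12 in eGFP/Flag cells (0.56 ± 0.08; adjusted p = 1.96e-05 by limma). SNRPC, which helps U1 to grip the start of the intron, read 11.36, 11.31 and 11.28 in LSD2/eGFP/Flag cells, against 10.85, 10.91 and 10.87 in eGFP/Flag cells (0.44 ± 0.06; adjusted p = 4.07e-05 by limma). SNRPB2, the relative of SNRPA on U2 RNA, read 11.84, 11.86 and 11.70 in LSD2/eGFP/Flag cells, against 12.27, 12.41 and 12.26 in eGFP/Flag cells. It fell by 0.52 on the log2 scale (SE 0.07; adjusted p = 3.68e-05 by limma), with no overlap. Its difference in the LSD2 shRNA arrays was 0.20 ± 0.07 and was not called (adjusted p = 0.119 by limma).

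Of the 7 Sm proteins, which sit together in 1 ring, 3 rose (42.9%) and 0 fell (limma, with 1 lower at an unadjusted p under 0.05). The shares over all genes were 30.9% higher and 26.1% lower. Under equal medians 1 rose and 1, SNRPG, fell. SNRPD3 read 12.41, 12.48 and 12.54 in LSD2/eGFP/Flag cells, against 12.05, 12.07 and 11.93 in eGFP/Flag cells, and rose by 0.46 ± 0.07 (adjusted p = 3.83e-05 by limma). SNRPB rose by 0.21 ± 0.06 (adjusted p = 0.00667 by limma) and SNRPE by 0.27 ± 0.07 (adjusted p = 0.00394 by limma); both lost the call under equal medians and as the mean of all probe sets. SNRPG read 13.18, 13.11 and 13.01 in LSD2/eGFP/Flag cells, against 13.24, 13.32 and 13.28 in eGFP/Flag cells; these did not overlap, and the difference of -0.18 ± 0.07 was not called (adjusted p = 0.0581 by limma; 0.00667 to 0.0483 in the 6 settings that called it lower).

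SNRPD3 and SRSF11 were the 2 members called in both comparisons, each higher in both; 8.02% of all genes (960) were called in both. Of those 960, 132 were higher in both, 324 were higher with LSD2 shRNA and lower with LSD2/eGFP/Flag, 270 the reverse and 234 lower in both. Among the 47 members, 0 were called higher in one comparison and lower in the other.

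Probe sets of 1 gene can read different transcript ends. For 30 members with several probe sets, tested in a fit over all single-gene probe sets, the highest minus the lowest difference of a gene had a median of 0.23 log2 in the vector comparison, against 0.31 for the 4310 such genes in all. In the LSD2 shRNA comparison it was 0.25 for the members against 0.15 for all such genes, which were not matched for their number of probe sets. SRSF11 had the widest spread of the members shown: its 3 probe sets were called higher in LSD2/eGFP/Flag by 0.52, 1.90 and 4.31. The probe set at 4.31 read 10.14, 9.77 and 10.06 in LSD2/eGFP/Flag cells, against 5.58, 5.63 and 5.84 in eGFP/Flag cells. Its SRSF11 values were 5.92, 6.20 and 6.36 in LSD2 shRNA cells and 6.80, 6.41 and 6.06 in scramble cells, which overlap.

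Probe sets called in opposite directions occurred in 2 of 30 members (6.67%), HNRNPD and SF3B3, and in 173 of 4310 genes (4.01%), in the vector comparison. HNRNPD, known for steering AU-rich mRNAs to decay, had 6 probe sets at 0.10, 0.15, 0.33, -0.61, 1.35 and -0.03, of which those at 0.33 and 1.35 were called higher and that at -0.61 lower. SF3B3 read 0.87 higher on the brighter and -0.25, called lower, on the dimmer probe set. HNRNPA3, a shuttling hnRNP named here after its values were seen, was at 0.04 on its brightest probe set, not called, and rose by 1.66 and 1.34 on the others. SRSF3 stood at 0.21, -0.23 and 0.69, the middle one not called.

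**Figure D4:**
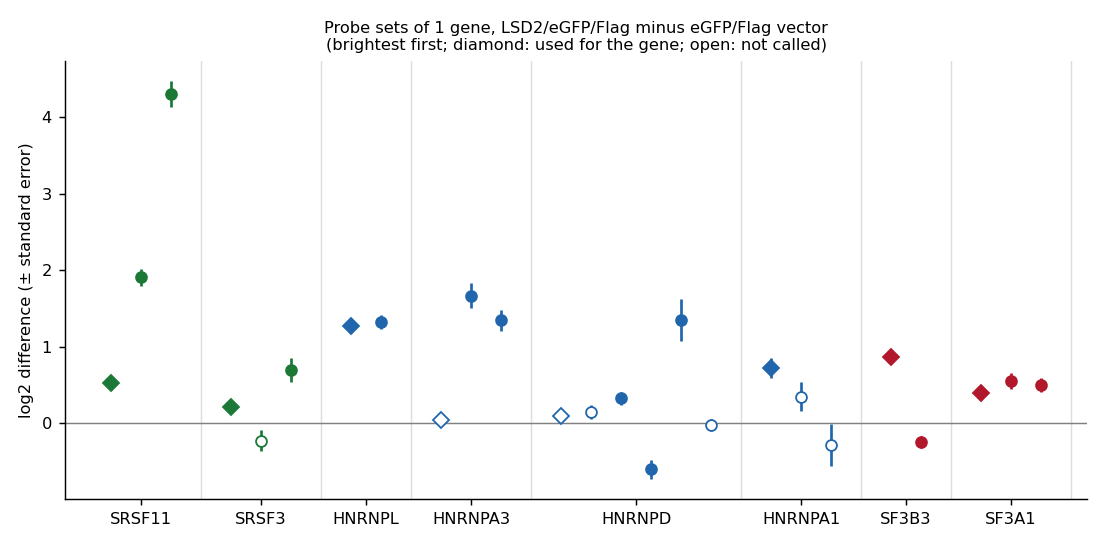
Log2 difference with standard error, LSD2/eGFP/Flag minus eGFP/Flag, of each probe set of 8 members, brightest first; diamonds mark the probe set used for the gene and open symbols were not called. HNRNPL and SF3A1 have probe sets close together, SRSF11 runs from 0.52 to 4.31, and HNRNPD and SF3B3 have called probe sets on both sides of 0.

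Splicing genes outside these families were read as context. Their vector counts stand beside 30.9% of all genes called higher and 26.1% called lower. Of 49 other spliceosome proteins measured, 21 rose (42.9%) and 15 fell (30.6%) in LSD2/eGFP/Flag, with a median of 0.02 log2. SNRNP40, a U5 particle protein, read 11.39, 11.38 and 11.29 in LSD2/eGFP/Flag cells, against 10.14, 10.31 and 10.23 in eGFP/Flag cells (1.13 ± 0.07; adjusted p = 1.49e-08 by limma). CDC5L, a core of the PRPF19 complex, rose by 1.04 ± 0.06 and LSM2, of the U6 ring, by 0.99 ± 0.09. Of 37 other splicing regulators 9 rose and 9 fell (24.3% each). NOVA1, a neuronal splicing regulator, read 7.80, 7.96 and 8.79 in LSD2/eGFP/Flag cells, against 5.63, 5.25 and 5.19 in eGFP/Flag cells, a rise of 2.83 ± 0.20, and ELAVL2, also neuronal, rose by 1.53 ± 0.12. MBNL1, the muscleblind regulator, fell to 10.49, 10.80 and 10.47 in LSD2/eGFP/Flag cells, against 12.25, 12.35 and 12.27 in eGFP/Flag cells (-1.71 ± 0.11; adjusted p = 1.18e-08 by limma). NOVA1, ELAVL2 and MBNL1 differed by more in size than HNRNPL did. Of the neural markers given above, 6 of 10 were higher in these arrays, and their part in the NOVA1 and ELAVL2 differences was not tested.

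Kinases and importers of SR proteins had 2 of 10 higher and 2 lower in the vector comparison. That is 20.0% each, beside 30.9% higher and 26.1% lower over all genes, in a list of only 10 genes. The nuclear SR kinase CLK2 rose by 1.00 ± 0.10 and CLK4 by 0.60 ± 0.14, while CLK1 fell, at -0.43 ± 0.13 (adjusted p = 1.83e-06, 0.00227 and 0.0114 by limma). The SMN complex and Sm protein methylation, which load Sm rings onto RNA, had 7 of 11 higher (63.6%) and 1 lower (9.09%), with a median of 0.28. GEMIN8 rose by 1.41 ± 0.09, COIL, the Cajal body scaffold, by 0.50 ± 0.08 and WDR77, the partner of the methylase PRMT5, by 0.39 ± 0.13. Of 7 nonsense-mediated decay genes 4 rose (57.1%) and 1 fell (14.3%), with a median of 0.27; UPF2 rose by 0.73 ± 0.10 and RNPS1 by 0.47 ± 0.07, and SMG9 fell, at -0.32 ± 0.09.

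**Figure D5:**
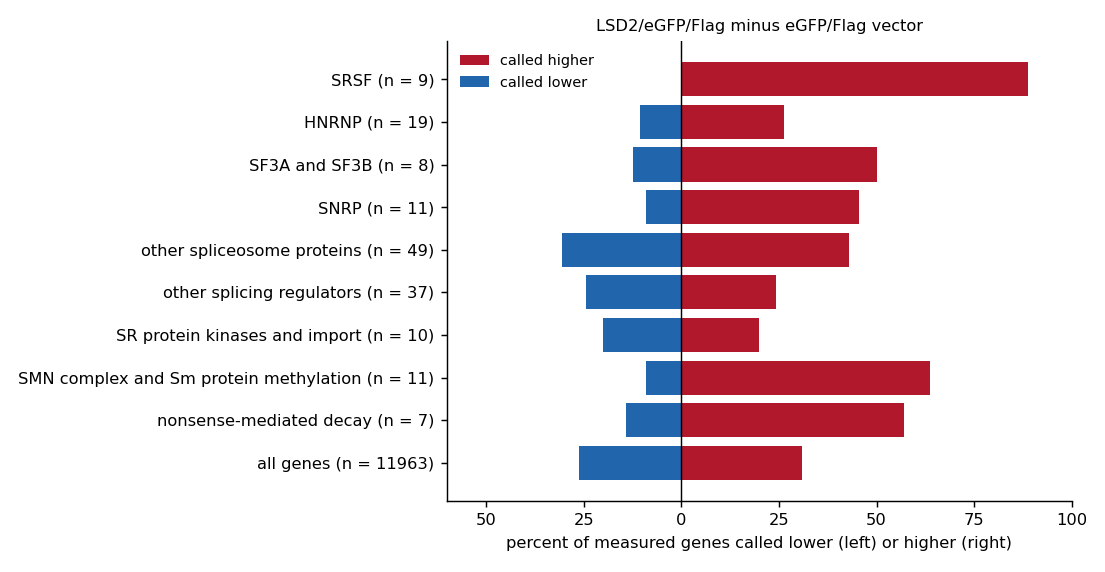
Percent of the measured genes of each list called higher (right, red) or lower (left, blue) in LSD2/eGFP/Flag relative to eGFP/Flag, with the number measured. SRSF genes reach 8 of 9 higher with none lower, HNRNP genes 5 of 19 higher and 2 lower, and all 11963 genes stand at 30.9% higher and 26.1% lower.

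With LSD2 shRNA, context genes were called in small numbers, beside 5.00% of all genes called higher and 5.53% called lower. Other spliceosome proteins had 3 higher and 3 lower of 49 (6.12% each), and other regulators 5 higher (13.5%) and 1 lower (2.70%) of 37. In each of the kinase, SMN and decay lists, with 10, 11 and 7 genes measured, 0 were higher and 1 was lower (limma, with 1, 2 and 1 higher at an unadjusted p under 0.05). PTBP2, the neuronal polypyrimidine tract protein, read 9.06, 8.86 and 8.72 in LSD2 shRNA cells, against 8.36, 8.24 and 8.46 in scramble cells (0.52 ± 0.10; adjusted p = 0.00489 by limma). MBNL3 rose by 0.62 ± 0.11 and CELF2 by 0.52 ± 0.10, both regulators of exon choice, and LSM5 rose by 0.40 ± 0.10 and SMNDC1, a U2-associated factor, by 0.38 ± 0.10. SRPK2, a cytoplasmic SR kinase, fell, at -0.29 ± 0.08 (adjusted p = 0.0301 by limma).

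PRPF8, the largest protein at the catalytic centre, read 10.63, 10.78 and 10.52 in LSD2 shRNA cells, against 11.26, 11.27 and 11.18 in scramble cells (-0.59 ± 0.08; adjusted p = 0.000432 by limma). GEMIN4, of the SMN complex, fell, at -0.55 ± 0.09, and SMG6, the endonuclease of nonsense-mediated decay, at -0.43 ± 0.08 (adjusted p = 0.00163 and 0.00529 by limma). These 3 genes lie close together on chromosome 17, by the gene order of the annotation table. Of the 16 measured genes from the first to the last of them, 12 were lower and 0 higher, with a median of -0.58. The stretch was set by these 3 genes, which were named because they were called. They count among the 12 and in the median, so its share of lower genes is not independent of that choice. Of 700 genes on chromosome 17 in all, 115 were lower and 12 higher, with a median of -0.04. The splicing factor gene SRSF1 on the same chromosome, far along it, differed by 0.11 ± 0.07 and was not called (adjusted p = 0.440 by limma).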

How the data were processed

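Total RNA from 12 cultures was measured on Affymetrix expression arrays with 22277 probe sets. The authors deposited log2 values that are RMA signals (background correction, quantile normalization, probe summary), per the submitters' processing notes; the program is not given in the sources used here. Levels of different probe sets were not compared, RMA gives no detection call, and precision is set by the few arrays.

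Gene names came from GEO's platform annotation, updated through a RefSeq gene table: 19064 probe sets named 1 gene, 1043 several and 2108 none. The brightest single-gene probe set per gene gave 11963 genes. The members and lists were chosen with earlier results of these data known. Each within-half difference was tested with limma 3.58.1 in R 4.3.3 (lmFit with a mean per group over all 12 arrays, 8 residual degrees of freedom, eBayes, two-sided), with Benjamini-Hochberg adjustment at 0.05; the procedure was tested on simulated data.

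Genes were named mostly by rule. These were up to 4 called members with the largest differences per family and comparison, and the 2 brightest members per family. Members called in both comparisons, members whose probe sets were called in opposite directions, and up to 3 called genes per context list and comparison were added. Other members, among them SRSF5, SRSF8, SRSF10, SNRPE, HNRNPU, SF3B2 and HNRNPA3, were named outside this rule. Replicate numbers were not taken as pairs, because the labels do not tie them to a shared culture or day and not every same-numbered pair deviated together. Alternatives were a replicate block, other scalings, leaving out the third of genes with the lowest mean (the filter on dim genes), probe set means, variance models, a threshold of 0.01 and leaving out each array.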

Additional observations from a re-analysis of the deposited data

Results flagged for a closer look

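The 14 probe sets that name a splicing factor together with another gene were left out of the comparisons, and some of these separated the groups. Such separation was common: arrays did not overlap for 28.3% of all genes with LSD2 shRNA and for 61.1% in the vector comparison. In each probe set given below as higher or lower, the arrays of the groups did not overlap; no test was run on them, and signals of the genes they share cannot be told apart.

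With LSD2 shRNA, 2 probe sets shared by HNRNPA1 and its pseudogenes were 0.13 and 0.10 log2 higher than in scramble shRNA. A probe set shared by SRSF2 and MIR636 was 0.12 higher than in scramble, while on the others, at 0.0093 and 0.0055, the groups overlapped. SRSF2, an SR protein that binds exonic enhancers, has no probe set of its own here.

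In LSD2/eGFP/Flag relative to eGFP/Flag, 2 of the SRSF2 and MIR636 probe sets were 0.64 and 0.47 log2 higher, while the other one differed by 0.05. Those shared by SRSF9 and GATC were 0.27 and 0.40 higher. The probe set shared by HNRNPH2 and its readthrough with RPL36A had the largest such difference, 1.27, with means of 11.64 in LSD2/eGFP/Flag and 10.37 in eGFP/Flag cells. A probe set shared by BSCL2 and its readthrough with HNRNPUL2 was 0.59 higher, and with LSD2 shRNA it was lower than in scramble, at -0.62. The probe set shared by HNRNPUL2 and that readthrough was lower in LSD2/eGFP/Flag, at -0.22. One probe set shared by HNRNPA3 and its pseudogene was 0.33 higher, while on the others, at -0.0048 and -0.0055, the groups overlapped.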

How the results depend on the processing

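In the vector comparison the count over all genes, 6824, stayed within 1.5 times under every alternative run (6411 to 6611 when 1 array was left out), and members called higher ranged from 17 to 22 and members called lower from 4 to 6 when 1 array was left out, with the median from 0.14 to 0.18. With equal medians 12 members were higher, 8 were lower and the median was 0.012, in place of 22, 4 and 0.15; with the mean of all probe sets 7 were lower. With LSD2 shRNA, members called higher were 1 with the compared groups alone, 1 with the mean of all probe sets, 5 with array weights, 0 at an adjusted p under 0.01 and 0 to 3 when 1 array was left out, in place of 2. Members called lower were 1 with a filter on dim genes, with an intensity trend and with array weights, each time SF3B2, and 0 when any 1 array was left out. The median was 0.12 with equal medians and 0.06 to 0.08 when 1 array was left out. The count over all genes, 1260, was 2350 with array weights, 564 at the stricter threshold and 752 to 1022 when 1 array was left out, the lowest without scramble replicate 1 (752), LSD2 shRNA replicate 1 (774) or scramble replicate 2 (832). SRSF11 with LSD2 shRNA turned to -0.019 with the mean of all probe sets. The causes were not tested. Deviations of same-numbered arrays from their group means correlated at 0.02, 0.51 and 0.45 (replicates 1, 2 and 3) with LSD2 shRNA and at -0.14, 0.17 and 0.18 in the vector comparison, above 0.1 for replicates 2 and 3 and not for replicate 1. With the replicate number as a block, 1640 genes were called with LSD2 shRNA and 6963 in the vector comparison, and it changed 1 member's call, SF3A2 (0.23 log2), to higher.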

Other observations

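HNRNPA1 was bright on the 2 probe sets it shares with near-identical copies, pseudogenes and HNRNPA1L2. They averaged 14.24 and 14.25 log2 in LSD2/eGFP/Flag cells, and 14.22 and 14.20 in eGFP/Flag cells, where the highest values of any probe set on these arrays were 14.69 to 14.73. The groups overlapped on both, with differences of 0.02 and 0.04, whereas the single-gene probe set of HNRNPA1 differed by 0.72. Whether signal near the top of the scale limited those differences was not tested.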
